A study of Mus musculus with 18 samples.

Results

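The genes described here encode 7 families of enzymes that clear drugs, toxins and endogenous lipids and hormones: the carboxylesterases (Ces), the soluble and the microsomal glutathione S-transferases (Gst and Mgst), the UDP-glucuronosyltransferases (Ugt), the sulfotransferases (Sult) and the cytochrome P450 subfamilies Cyp2 and Cyp3a. Members were taken by symbol, with the families chosen when earlier results of these data were known. Every probe set that the array's annotation gave a single symbol of these families was taken, with 1 probe set per gene, the brightest on average. This gave 114 of the 19938 genes measured, namely 45 Cyp2, 18 Gst, 16 Ces, 16 Sult, 10 Ugt, 6 Cyp3a and 3 Mgst genes. Their transcripts were measured on 1-colour microarrays in small intestinal crypt cells of C57Bl6/J mice, 4 months old, of the genotype FltpZV/+, so every group carried 1 copy of a fluorescent reporter allele of Flattop (gene symbol Cfap126). Cells were sorted by the GFP level of the reporter (FVR) into a negative, a low and a high gate. There were 2 arrays per gate, each of RNA pooled from 2 animals. Whether animals were shared between gates is not given in the labels, so p-values measure only the spread between arrays of a gate, which may be partly technical. Another 12 samples, of a line made by crossing FltpT2AiCre with Gt(ROSA)26mTmG, are not analysed here.

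Detoxification runs in steps. Cytochrome P450 enzymes oxidise a compound, or carboxylesterases split its ester or amide bonds. Transferases then attach glutathione, glucuronic acid or sulfate, and transporters export the conjugate. In the small intestine these enzymes are known mainly from absorptive enterocytes, where they meet food-borne compounds first, and many are induced through the receptors PXR (Nr1i2), CAR (Nr1i3) and AHR (Ahr) or the stress factor NRF2 (Nfe2l2).

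Values are the authors' RMA values, a summary of probe brightness on a log2 scale on which a difference of 1 is a doubling. A gene was called where limma's test gave an adjusted p under 0.05 (Benjamini-Hochberg, over all 19938 genes), and all changes and p-values given here come from that fit. Levels are compared only within a gene, since probe sets differ in brightness, and a gene called the brightest of its family has the highest signal among probe sets with 1 symbol, not a known higher transcript level. A value of 4.23, below which 95% of 1207 olfactory and other chemosensory receptor genes lay on average, served as background. Of the 114 members, 58 lay above it on average, 74 on at least 1 array, 42 on all 6 and 40 on none. All 10 epithelial markers were above background on all 6 arrays. Their median log2 change was -0.60 in low and -0.61 in high against negative cells, where 0 and 1 were called. Cfap126 itself lay at 5.39 and 4.79 in negative, 5.16 and 6.13 in low and 5.15 and 5.0 in high cells, and was not called (adjusted p = 0.528 and 0.983 against negative cells). Across all genes the 2 arrays of a gate correlated at 0.981 in negative, 0.975 in low and 0.946 in high cells, a description over genes that are not independent.

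Reporter-low cells had 12 members lower and 3 higher than reporter-negative cells. These 15 calls are 13.2% of the members, where 5.96% of all genes were called (3.42% higher and 2.54% lower). The 12 that fell were Ces1e, Ces1f, Ces1g, Ces2e, Ces2g, Gstp1, Gstp3, all 3 Mgst genes, Sult1b1 and Ugt2a3, and the 3 that rose were Gstk1, Gstt1 and Ces3a. Reporter-high cells had 10 members lower and 1 higher than negative cells, or 9.65%, where 4.71% of all genes were called (1.36% higher and 3.35% lower). Under quantile normalization the split of all called genes in that comparison was 324 higher against 297 lower, where the authors' values gave 272 against 667, and the members then had 0 higher and 8 lower. High cells had 7 members lower and 0 higher than low cells, or 6.14%, where 4.91% of all genes were called (1.01% higher and 3.89% lower). At an unadjusted p under 0.05, 8 members were higher and 9 lower in that last comparison. The share of all genes at that threshold was not counted. Here and below, such unadjusted counts therefore have no background share beside them and are descriptions only. Of the 114 members, 20 were called in at least 1 comparison and 94 in none. Both comparisons with negative cells use the same 2 negative arrays. Of the 15 calls in low against negative cells, 4 were kept without negative replicate 1, 3 without negative replicate 2 and 4 without low replicate 2. Of the 11 in high against negative cells, 0 were kept without either negative array and 5 without high replicate 2. Of the 7 in high against low cells, 3 were kept without either low array and 4 without high replicate 2 or either negative array.

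The median log2 change over all 114 members was -0.12 between low and negative, -0.06 between high and negative and 0.18 between high and low cells, where the medians of all genes were -0.03, 0.10 and 0.13. Among members above background on average the same medians were -0.62, -0.92 and -0.00, and among all genes above background -0.04, -0.07 and -0.01. The arrays of the gates did not overlap for 59 members between low and negative, 61 between high and negative and 53 between high and low cells, where this held for 51.5%, 55.2% and 55.8% of all genes. The highest mean lay in the negative gate for 46 of the 114 members (40.4%), in the low gate for 20 (17.5%) and in the high gate for 48 (42.1%), where the shares of all genes were 27.9%, 24.2% and 47.9%. The negative gate was highest for 13 of the 18 Gst, all 3 Mgst, 6 of the 10 Ugt, 7 of the 16 Ces, 6 of the 16 Sult, 3 of the 6 Cyp3a and 8 of the 45 Cyp2 genes. The high gate was highest for 25 of the 45 Cyp2 and 9 of the 16 Sult genes, or 55.6% and 56.2%, near the share of all genes. Of the 45 Cyp2 genes, 21 were above background on no array. In sorted samples fewer cells of a type and less RNA per cell cannot be told apart.

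**Figure D1:**
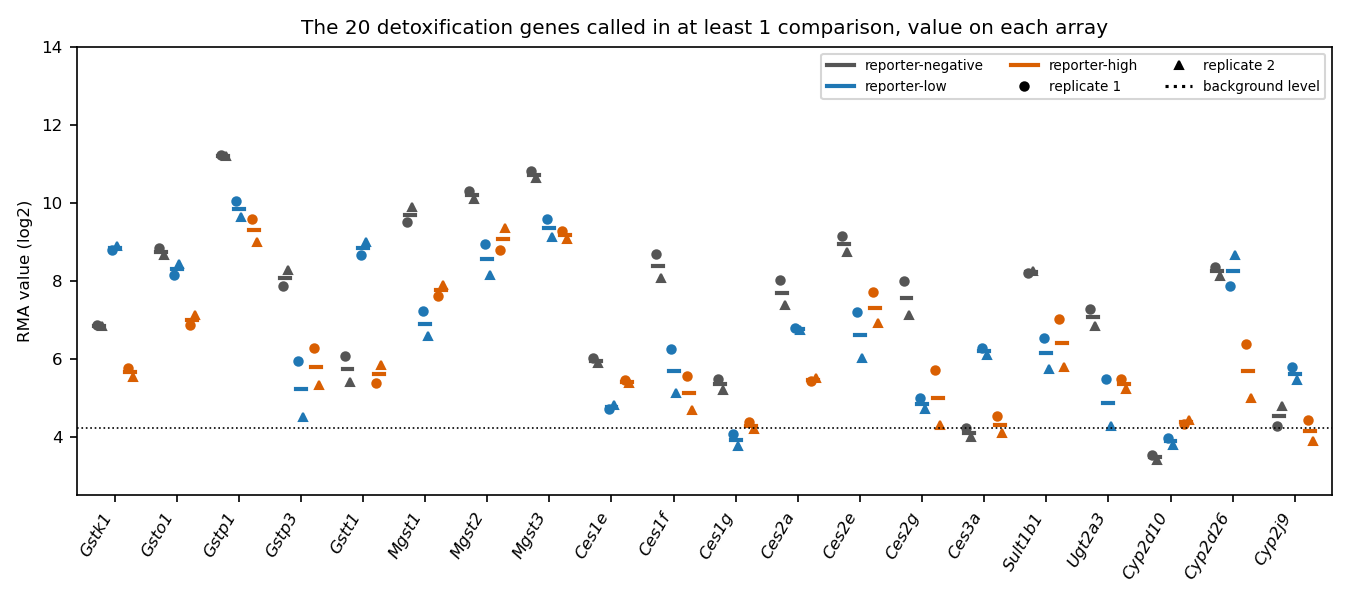
RMA value (log2) on each of the 6 arrays for the 20 detoxification genes called in at least 1 comparison, in grey for reporter-negative, blue for reporter-low and orange for reporter-high cells. Circles are replicate 1, triangles replicate 2, bars the mean of a gate and the dotted line the background of 4.23, and Gstk1, Gstt1 and Ces3a stand highest in low cells, while most of the others stand highest in negative cells.

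Of the 18 soluble glutathione transferases, 17 were above background on at least 1 array. The 2 that rose in low cells were Gstk1, the kappa-class transferase of mitochondria and peroxisomes, and Gstt1, of the theta class. Gstk1 measured 6.87 and 6.83 in negative, 8.80 and 8.89 in low and 5.77 and 5.53 in high cells. All 3 gates were separate, with low cells highest and high cells lowest. Against negative cells its log2 change was 2.00 (SE 0.18, adjusted p = 0.00311) in low and -1.20 (SE 0.18, adjusted p = 0.0223) in high cells. Between high and low cells it was -3.20 (SE 0.18, adjusted p = 0.000633), a 9.16-fold difference. Gstt1 measured 6.07 and 5.39 in negative, 8.66 and 9.01 in low and 5.38 and 5.85 in high cells. Its low arrays stood apart from the other 4, which overlapped. The change was 3.10 (SE 0.30, adjusted p = 0.00322) in low against negative cells, 8.6-fold, and -3.22 (SE 0.30, adjusted p = 0.00235) in high against low cells. In high against negative cells it was -0.12 (SE 0.30, adjusted p = 0.833). Both genes kept their calls in low cells, against negative and against high cells, when each of the 6 arrays was left out in turn. The Gstk1 call in high against negative cells was lost without negative replicate 1 or negative replicate 2 (adjusted p 0.11 to 0.163 over the 5 glutathione transferases called there).

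The theta-class genes are neighbours, in the order Gstt3, Gstt1, Gstt4 and Gstt2 in the GRCm38.p6 gene table. The other 3 were not called in any comparison. The log2 change in low against negative cells was 0.12 for Gstt3 and -0.78 for Gstt2, and Gstt4 was above background on no array. Windows upstream of the start sites of Gstk1 and Gstt1 are shown because both transferases rose in low cells. The sequences, of 250 bases ending at the start site and written 5′ to 3′, come from RefSeq, build GRCm38.p6, chr6:42245685-42245934 on the plus strand for Gstk1 and chr10:75797732-75797981 on the minus strand for Gstt1. Capitals would mark any of 6 motifs, each searched on both strands. The core of the antioxidant response element, bound by NRF2, was searched as TGACNNNGC. The AHR core was searched as GCGTG, and the TATA box upstream of many start sites as TATAAA. The elements of the gut and liver factors HNF1 and HNF4 were searched as GTTAAT for the former and as CAAAGTCCA for the latter. The AP-1 site, which can overlap the antioxidant response element, was searched as TGANTCA. It was added after the windows had been read, no such motif search had been planned, and the matches are descriptions only.
Gstk1: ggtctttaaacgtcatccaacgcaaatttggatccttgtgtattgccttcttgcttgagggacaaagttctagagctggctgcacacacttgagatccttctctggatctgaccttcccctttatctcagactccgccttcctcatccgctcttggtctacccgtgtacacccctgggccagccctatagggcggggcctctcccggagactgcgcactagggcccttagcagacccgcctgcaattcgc
Gstt1: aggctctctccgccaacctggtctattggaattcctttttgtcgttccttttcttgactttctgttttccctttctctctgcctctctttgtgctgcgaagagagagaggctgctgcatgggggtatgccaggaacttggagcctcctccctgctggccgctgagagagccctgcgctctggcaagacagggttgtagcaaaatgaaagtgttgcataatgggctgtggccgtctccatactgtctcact
Neither window holds any of the 6 motifs.

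Gstp1 and Gstp3, pi-class transferases encoded in 1 cluster, were lower in low cells. Gstp1, the brightest soluble transferase among probe sets with 1 symbol, measured 11.23 and 11.19 in negative, 10.06 and 9.65 in low and 9.60 and 9.01 in high cells. Both negative arrays lay above the other 4, and high cells lay below low cells without overlap. It fell by 1.36 (SE 0.26, adjusted p = 0.0305) on the log2 scale in low and by 1.91 (SE 0.26, adjusted p = 0.0175) in high cells, and high and low cells differed by -0.55 (SE 0.26, adjusted p = 0.26). Gstp3 measured 7.87 and 8.27 in negative, 5.95 and 4.52 in low and 6.27 and 5.32 in high cells. Here too the negative arrays were highest, while low and high overlapped. It fell by 2.83 (SE 0.51, adjusted p = 0.025) in low cells, 7.13-fold, and its change in high cells was -2.27 (SE 0.51, adjusted p = 0.0563). The adjusted p of that last change was 0.0365 with only genes above background and 0.0396 with only the 4 arrays compared. With an intensity trend in limma's prior it was 0.0438, or 0.0434 with a robust prior as well. Without high replicate 1 the Gstp3 change was -2.75. Gene copies this alike can share probes, and the files hold no probe sequences, so how far the Gstp1 and Gstp3 values are independent is uncertain.

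The Gstp1 and Gstp3 windows are shown together because both genes of this cluster fell in low cells. They lie at chr19:4037913-4038162 on the minus strand and chr19:4059448-4059697 on the minus strand (RefSeq, GRCm38.p6), with the same capitals.
Gstp1: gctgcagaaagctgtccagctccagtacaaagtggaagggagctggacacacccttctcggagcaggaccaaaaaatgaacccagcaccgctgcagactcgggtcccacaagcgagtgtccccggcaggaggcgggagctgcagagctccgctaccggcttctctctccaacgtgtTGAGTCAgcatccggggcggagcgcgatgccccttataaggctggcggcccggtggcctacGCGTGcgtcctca
Gstp3: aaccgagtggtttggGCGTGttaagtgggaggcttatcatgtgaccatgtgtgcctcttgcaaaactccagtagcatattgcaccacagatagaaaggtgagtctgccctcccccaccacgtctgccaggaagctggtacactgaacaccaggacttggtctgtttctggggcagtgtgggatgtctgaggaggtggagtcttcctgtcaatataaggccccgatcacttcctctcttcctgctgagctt
The Gstp1 window holds TGANTCA from 74 bases and GCGTG from 13 bases before the start site, and the Gstp3 window holds GCGTG from 235 bases before it. TGANTCA occurs in 6.75% of all 32851 windows of this length and in 8.93% of the 112 windows of members, and GCGTG in 28.2% and 15.2%. TGACNNNGC occurs in 10.2% of all windows and 3.57% of members' windows, those of Gsta3, Gstm5, Gstm7 and Mgst1.

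All 3 microsomal transferases, membrane proteins that conjugate glutathione and in part act on lipid hydroperoxides or make leukotriene C4, were lower in low cells. Mgst1 measured 9.52 and 9.88 in negative, 7.22 and 6.58 in low and 7.62 and 7.90 in high cells, with the negative arrays highest and the low arrays lowest. It fell by 2.80 (SE 0.27, adjusted p = 0.0034) in low and by 1.94 (SE 0.27, adjusted p = 0.0185) in high cells. Mgst2 measured 10.30 and 10.11 in negative, 8.94 and 8.16 in low and 8.80 and 9.36 in high cells. The negative arrays were again highest, and low and high overlapped. Mgst2 fell by 1.65 (SE 0.32, adjusted p = 0.0301) in low cells, and its change in high cells was -1.12 (SE 0.32, adjusted p = 0.103). Mgst3, the brightest Mgst probe set, measured 10.81 and 10.64 in negative, 9.59 and 9.12 in low and 9.28 and 9.08 in high cells. Negative cells were highest on both arrays, and low and high overlapped. Mgst3 fell by 1.37 (SE 0.23, adjusted p = 0.0186) in low and by 1.54 (SE 0.23, adjusted p = 0.0197) in high cells. None of the 3 was called between high and low cells, where their changes were 0.86, 0.53 and -0.17 and 1 had an unadjusted p under 0.05.

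Gsto1, the omega-class enzyme that reduces dehydroascorbate and methylated arsenic, was lower in high cells. It measured 8.83 and 8.67 in negative, 8.15 and 8.44 in low and 6.88 and 7.11 in high cells. High cells lay below all other arrays. It fell by 1.76 (SE 0.20, adjusted p = 0.013) against negative and by 1.3 (SE 0.20, adjusted p = 0.018) against low cells, and low and negative cells differed by -0.46 (SE 0.20, adjusted p = 0.301). Its neighbour Gsto2 measured 3.61 and 3.44 in negative, 4.10 and 4.75 in low and 4.01 and 4.46 in high cells and was not called.

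None of the 7 mu-class (Gstm) genes and 2 alpha-class (Gsta) genes passed the test in any comparison, and all 9 had lower means in low and in high than in negative cells. Gstm3 measured 10.97 and 10.11 in negative, 9.04 and 6.97 in low and 9.09 and 6.76 in high cells. Its change in low against negative cells was -2.53 (SE 0.89, adjusted p = 0.183). Gsta4, which acts on lipid peroxidation products such as 4-hydroxynonenal, measured 9.07 and 8.47 in negative, 7.49 and 4.61 in low and 6.72 and 6.73 in high cells. Its change in low cells was -2.72 (SE 0.81, adjusted p = 0.118). The gates did not overlap for either gene in this comparison, but replicate 2 of the low gate lay far below replicate 1. The median log2 change of the Gst family was -0.70 between low and negative, -1.07 between high and negative and -0.00 between high and low cells, and that of the Mgst family -1.65, -1.54 and 0.53.

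Gstp1, Gstp3, Mgst2 and Mgst3 were no longer called in low against negative cells without negative replicate 1 (adjusted p 0.129 to 0.194), negative replicate 2 (0.11 to 0.17) or low replicate 2 (0.0867 to 0.171). Gstp1 also lost its call without low replicate 1 (adjusted p = 0.0723). The 5 calls in high against negative cells were lost without negative replicate 1 (0.11 to 0.163) or negative replicate 2 (0.119 to 0.155), and Mgst3 also without high replicate 2 (0.0506). Gsto1 in high against low cells was lost without either low array (0.0645 and 0.115) or either negative array (0.0542), the latter leaving only the 4 arrays compared. Under quantile normalization Mgst2 in low cells had an adjusted p of 0.0632. The Mgst1 call in low against negative cells was kept without each of the 6 arrays.

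**Figure D2:**
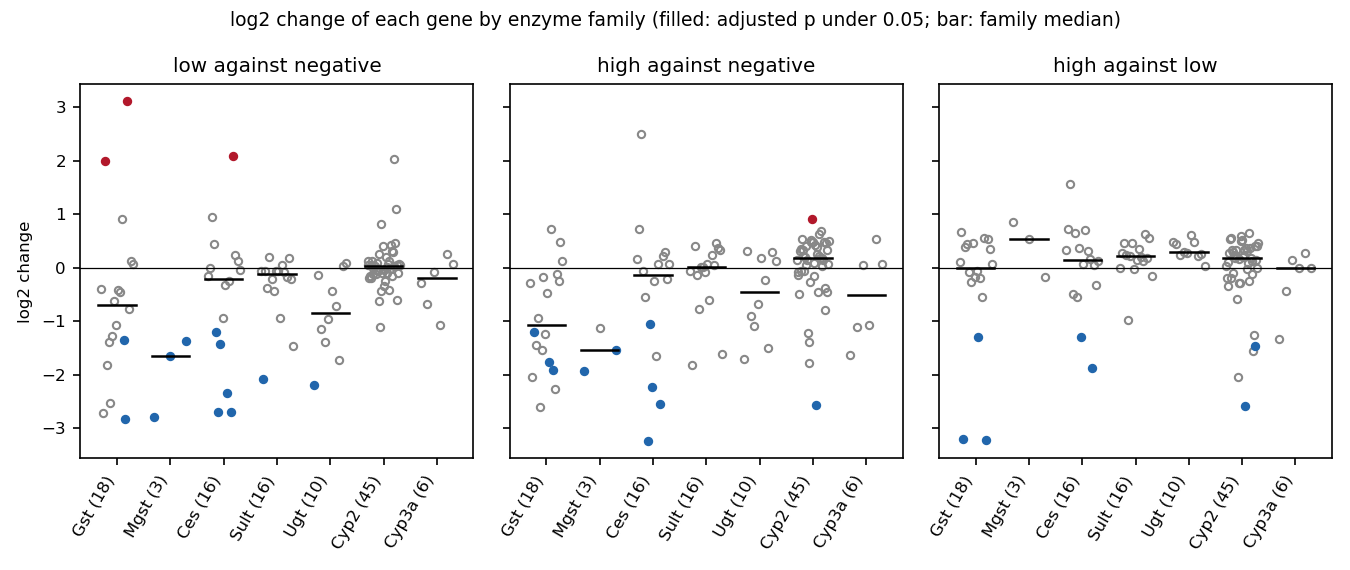
log2 change of each of the 114 genes, grouped by family with the number of genes in brackets, for the 3 comparisons. Filled points passed an adjusted p under 0.05 (red higher, blue lower), open points did not and bars are family medians, and the calls lie mostly below 0, with 3 filled points above 0 between low and negative, 1 between high and negative and 0 between high and low cells.

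Carboxylesterases, the enzymes of ester hydrolysis, activate ester prodrugs, split xenobiotic esters and hydrolyse lipid esters. Of the 16 genes, 12 were above background on at least 1 array. In low against negative cells 5 were lower and 1 higher, or 37.5%, where 5.96% of all genes were called. In high against negative cells 4 were lower and 0 higher, or 25%, where 4.71% of all genes were called. At an unadjusted p under 0.05, 2 were higher and 6 lower in high against negative cells. The Ces1 genes lie together in the gene table, as do the Ces2, Ces3 and Ces4a genes, and near-identical copies may share probes.

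Ces1f measured 8.68 and 8.06 in negative, 6.25 and 5.12 in low and 5.56 and 4.69 in high cells. The negative arrays were highest, and low and high overlapped. It fell by 2.69 (SE 0.46, adjusted p = 0.0204) in low cells, 6.46-fold, and by 3.25 (SE 0.46, adjusted p = 0.0182) in high cells, 9.49-fold. Ces1g, which hydrolyses lipid esters and is known from intestine and liver, measured 5.48 and 5.21 in negative, 4.08 and 3.76 in low and 4.37 and 4.20 in high cells. Neither low array was above background, so its fall in low cells is given as at least 1.12 on the log2 scale against background, where the fit gave -1.42 (SE 0.21, adjusted p = 0.0133). It fell by 1.06 (SE 0.21, adjusted p = 0.0424) in high cells, where 1 of the 2 arrays was above background. Ces1e measured 6.01 and 5.90 in negative, 4.71 and 4.82 in low and 5.46 and 5.37 in high cells, with all 3 gates separate and low cells lowest. Ces1e fell by 1.19 (SE 0.18, adjusted p = 0.0138) in low cells, and its change in high cells was -0.54 (SE 0.18, adjusted p = 0.141). The other 4 Ces1 genes were not called, and Ces1c measured 3.88 and 3.66 in negative, 5.06 and 4.36 in low and 7.57 and 4.98 in high cells, with the high arrays far apart.

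Among the Ces2 genes, the main intestinal carboxylesterases, Ces2e and Ces2g were lower in low cells and Ces2a and Ces2g in high cells. Ces2e, the brightest Ces probe set, measured 9.16 and 8.75 in negative, 7.19 and 6.02 in low and 7.71 and 6.91 in high cells. Negative cells were highest, and low and high overlapped. It fell by 2.35 (SE 0.43, adjusted p = 0.0275) in low cells, 5.1-fold, and its change in high cells was -1.65 (SE 0.43, adjusted p = 0.0879). Ces2g measured 8.0 and 7.12 in negative, 4.99 and 4.72 in low and 5.72 and 4.30 in high cells, again with negative cells highest and the other gates overlapping. Ces2g fell by 2.70 (SE 0.49, adjusted p = 0.0256) in low and by 2.55 (SE 0.49, adjusted p = 0.0381) in high cells. Ces2a measured 8.01 and 7.37 in negative, 6.78 and 6.73 in low and 5.43 and 5.50 in high cells. All 3 gates were separate, in the order negative, low and high. In high cells Ces2a fell by 2.23 (SE 0.24, adjusted p = 0.0112) against negative and by 1.29 (SE 0.24, adjusted p = 0.0353) against low cells, and low and negative cells differed by -0.94 (SE 0.24, adjusted p = 0.0814), or adjusted p = 0.0457 with array weights.

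Ces3a was the carboxylesterase that rose in low cells, and it lies in the same run of genes as Ces2e and Ces2g, which fell there. It measured 4.21 and 3.98 in negative, 6.29 and 6.10 in low and 4.52 and 4.10 in high cells. Both low arrays stood well above the other 4, which lay close to background. Neither negative array was above background, so the rise is given as at least 1.97 on the log2 scale against background. The fit gave 2.09 (SE 0.22, adjusted p = 0.00437). It fell by 1.88 (SE 0.22, adjusted p = 0.00627) in high against low cells. Its neighbours Ces3b and Ces4a were above background on no array.

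Without negative replicate 1, 5 of the 6 Ces calls in low against negative cells were lost (adjusted p 0.119 to 0.185), without negative replicate 2 all 6 (0.0534 to 0.123), without low replicate 2 the 5 lower ones (0.0756 to 0.132), and without low replicate 1 those of Ces1e and Ces2g (0.0823 to 0.0915). All 4 in high against negative cells were lost without either negative array (0.0637 to 0.253), 3 without high replicate 2 (0.0515 to 0.093), and those of Ces1g and Ces2g without either low array (0.0675 to 0.0681). Ces2a in high against low cells was lost without any 1 of the 4 arrays compared (0.0605 to 0.166), with array weights (0.0838) and under quantile normalization (0.0531). Ces1g in high against negative cells was also lost with array weights (0.0692), and quantile normalization ended the calls of Ces2g in low (0.0532) and in high cells (0.0726).

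For glucuronidation and sulfation, 7 of the 10 Ugt genes and 7 of the 16 Sult genes were above background on at least 1 array. Ugt2a3 and Sult1b1, encoded in 1 run of 11 Ugt2 and Sult1 genes, were lower in low cells, and no other gene of either family was called. These calls are 10% of the Ugt and 6.25% of the Sult genes, not far from the 5.96% of all genes called in that comparison. Ugt2a3, which glucuronidates bile acids, measured 7.29 and 6.85 in negative, 5.48 and 4.28 in low and 5.49 and 5.23 in high cells. The negative arrays were highest and low and high overlapped. It fell by 2.19 (SE 0.39, adjusted p = 0.025) in low cells, 4.57-fold, and its change in high cells was -1.71 (SE 0.39, adjusted p = 0.0608). Sult1b1, which sulfates small phenols and thyroid hormones, measured 8.19 and 8.25 in negative, 6.54 and 5.74 in low and 7.03 and 5.80 in high cells. Negative cells were highest, and the low and high arrays spanned overlapping ranges. Sult1b1 fell by 2.08 (SE 0.43, adjusted p = 0.0404) in low cells, and its change in high cells was -1.81 (SE 0.43, adjusted p = 0.0687).

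In high against negative cells no Ugt and no Sult gene was called. At an unadjusted p under 0.05, where the share of all genes was not counted, 2 Ugt and 3 Sult genes were lower and none higher. Ugt2a3 passed in that comparison with only the 4 arrays compared (adjusted p = 0.0343) and with only genes above background (0.0417). Sult1b1 passed with only genes above background (0.0457), and its change without high replicate 1 was -2.425. The brightest Ugt and Sult members were not called. Ugt2b34 measured 9.39 and 8.66 in negative, 8.27 and 7.50 in low and 8.52 and 7.73 in high cells, with the negative arrays highest. Sult1d1, known for sulfating catecholamines, measured 9.20 and 8.70 in negative, 9.26 and 9.06 in low and 8.18 and 8.16 in high cells. Its high arrays lay below the other 4, and high cells differed from low cells by -0.98 (SE 0.22, adjusted p = 0.0606). All 8 Ugt2 genes had negative changes in low against negative cells, with a median of -1.05, and all 10 Ugt genes had positive changes in high against low cells, with a median of 0.28 where that of all genes was 0.13. Neither call held without negative replicate 1 (adjusted p 0.172 to 0.2), negative replicate 2 (0.111 to 0.208) or low replicate 2 (0.0688 to 0.195), and that of Sult1b1 was also lost without low replicate 1 (0.0687).

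The oxidising cytochrome P450 subfamilies held 51 members, of which 23 were above background on no array. In low against negative cells 0 of the 51 were called, with 2 higher and 0 lower at an unadjusted p under 0.05. In high against negative cells Cyp2d26 fell and Cyp2d10 rose, and in high against low cells Cyp2d26 and Cyp2j9 fell. These 2 of 51 (3.92%) in each comparison lie near the shares of all genes called there, 4.71% and 4.91%. At an unadjusted p under 0.05, 3 were higher and 3 lower in high against negative and 4 higher and 3 lower in high against low cells. None of the 6 Cyp3a genes was called in any comparison, and 1 was lower in high against negative cells at an unadjusted p under 0.05.

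Cyp2d26, the brightest Cyp2 probe set, measured 8.37 and 8.12 in negative, 7.87 and 8.66 in low and 6.38 and 5.0 in high cells. Low and negative cells overlapped, both high arrays lay below them, and high replicate 2 lay well below high replicate 1. It fell by 2.56 (SE 0.47, adjusted p = 0.0334) against negative cells, 5.89-fold, and by 2.58 (SE 0.47, adjusted p = 0.0302) against low cells. Cyp2d10, from the same run of 10 Cyp2d genes, measured 3.54 and 3.41 in negative, 3.97 and 3.79 in low and 4.34 and 4.44 in high cells. The gates were separate, but only the high arrays exceeded background. Its rise in high against negative cells is given as at least 0.16 on the log2 scale, where the fit gave 0.91 (SE 0.18, adjusted p = 0.0427). That bound takes background as equal on all arrays. Of all genes, 65.57% and 69.58% exceeded it on the high and 61.38% and 62.47% on the negative arrays. The part of a raised floor in the Cyp2d10 rise was not tested. The other 8 Cyp2d genes were not called. Cyp2j9, of a subfamily that oxidises arachidonic acid, measured 4.28 and 4.79 in negative, 5.78 and 5.46 in low and 4.42 and 3.90 in high cells. Low cells were highest, and negative and high overlapped. It fell by 1.46 (SE 0.28, adjusted p = 0.0346) in high against low cells, with 1 of the 2 high arrays above background, and its change in low against negative cells was 1.09 (SE 0.28, adjusted p = 0.074), or adjusted p = 0.0299 with array weights.

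The window upstream of Cyp2d26 is shown because this gene fell in high cells. Cyp2d22, at the other end of the cluster and above background on all 6 arrays, was not called there (log2 change 0.43). The adjacent Cyp2d40, also above background on all 6 arrays, was not called either, with a change of -0.45. The Cyp2d26 window lies at chr15:82794246-82794495 on the minus strand (RefSeq, GRCm38.p6).
Cyp2d26: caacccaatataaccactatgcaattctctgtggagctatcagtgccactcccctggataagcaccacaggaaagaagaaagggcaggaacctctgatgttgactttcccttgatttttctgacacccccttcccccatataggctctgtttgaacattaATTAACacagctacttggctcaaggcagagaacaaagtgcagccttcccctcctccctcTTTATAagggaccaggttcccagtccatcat
Its capitals are GTTAAT, read on the opposite strand as ATTAAC from 90 bases before the start site, and TATAAA, read on the opposite strand as TTTATA from 31 bases before it. GTTAAT occurs in 6.43% of all windows and 10.7% of members' windows, and TATAAA in 12.4% and 27.7%. CAAAGTCCA occurs in 0.384% of all windows and in 6 of the 112 members' windows, those of Cyp2c65, Cyp2c67, Cyp2c68, Cyp2c70, Cyp3a11 and Cyp3a16, none of which was called. The table held windows for 97 of the 114 members, and clustered copies share ancestry, so these windows are not independent.

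Both calls in high against low cells were lost without high replicate 2 (adjusted p 0.0545 to 0.0927), without low replicate 1 (0.0691 to 0.179), without low replicate 2 (0.103 to 0.15) and without either negative array (0.0627 to 0.077). Both in high against negative cells were lost without negative replicate 1 (0.202 to 0.205), negative replicate 2 (0.17 to 0.24) or high replicate 2 (0.0556 to 0.0825), and under quantile normalization (0.065 to 0.0891). Cyp2d10 was also lost without either low array (0.0799), with array weights (0.0666) and where a log2 change of at least 1 was required, and Cyp2j9 with array weights (0.0633).

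Several members with clear signal differed widely between the 2 arrays of a gate. Cyp3a25, the brightest Cyp3a probe set, measured 8.33 and 7.07 in negative, 8.22 and 5.04 in low and 6.96 and 6.29 in high cells. Its low arrays spanned a wider range than the other 4 arrays together. Cyp3a11 and Cyp3a13, which oxidise many drugs, measured 6.02 and 4.72 and 7.21 and 5.70 in low cells, with replicate 1 higher in every gate for both genes. Ugt2b5 measured 7.11 and 4.77 in negative cells, and Cyp2j5 measured 6.96 and 4.17 in low cells. In the low gate replicate 1 exceeded replicate 2 by more than 1 log2 unit for 19 of the 114 members (16.7%), where this held for 1.62% of all genes, and the opposite held for 0 members. In the negative gate the counts were 12 members (10.5%, against 0.948% of all genes) and 1, and in the high gate 5 (4.39%, against 4.6%) and 1. The low-gate count included 7 of the 18 Gst and 3 of the 6 Cyp3a genes.

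**Figure D3:**
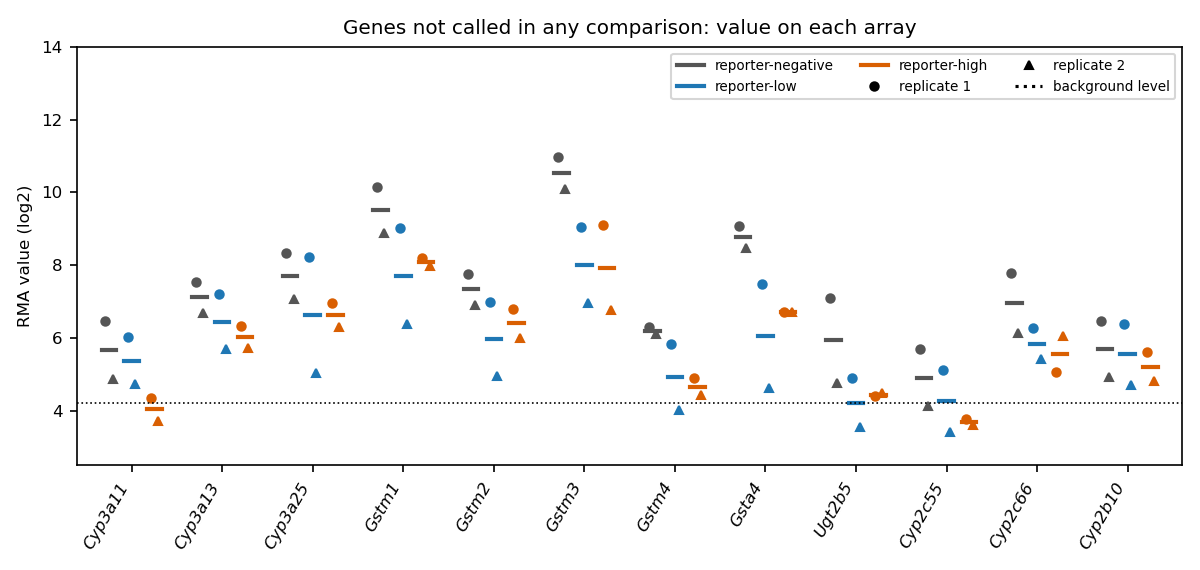
RMA value (log2) on each array for 12 detoxification genes, chosen after their values were seen, that were called in no comparison. Symbols are circles for replicate 1, triangles for replicate 2, bars for the mean of a gate and a dotted line for background, and replicate 1 of the low gate (blue) lies above replicate 2 for all 12 genes.

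Markers of absorptive enterocytes, like most called members, tended to be lower in low and high than in negative cells. Of 18 such markers, 5 were lower in low and 7 in high than in negative cells, and 0 were higher. Their mean log2 value was 9.56 and 9.20 in negative, 8.96 and 8.04 in low and 8.33 and 7.82 in high cells, with replicate 1 higher in each gate. Their summed linear level was 20252 to 26498 in negative, 10651 to 18414 in low and 9130 to 12867 in high cells, and each of the 18 was above background on at least 1 array. The brush-border phosphatase Alpi was at 10.24 and 7.38 on the low arrays. Between high and low cells 15 of the 18 markers had negative changes, with a median log2 change of -0.46 and 0 called. Over the 114 members, 40 of them above background on no array, that median was 0.18, where the median of all genes was 0.13. It was lower, as given above, among members above background on average. Over all 114 members the summed linear level was 14207 to 18186 in negative, 7032 to 9774 in low and 6074 to 7274 in high cells. Such a sum follows the brightest probe sets and does not describe each member. In negative cells the sum was 6051 to 7944 for the 18 Gst and 3646 to 3787 for the 3 Mgst genes. For the 45 Cyp2 genes it was 1241 to 1699 in negative, 1427 to 1611 in low and 982 to 1052 in high cells. The part of enterocyte content in the lower detoxification genes, or in the differences between arrays of a gate, was not tested.

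Markers of several other cell types were, like Gstk1, Gstt1 and Ces3a, higher in low than in negative cells. All 15 enteroendocrine markers were higher in low than in negative cells, with a summed linear level of 730 to 1095 in negative, 51432 to 53127 in low and 2061 to 2989 in high cells. Of 10 T cell markers, 7 were higher in low and 8 lower in high than in negative cells, with summed levels of 4113 to 4656, 12575 to 12594 and 1269 to 1356, an order of gates that Gstk1 shared. Within that list Cd2 measured 3.81 and 3.90 in negative, 3.54 and 4.30 in low and 3.99 and 4.41 in high cells, at or near background. Of 11 myeloid markers 6 were higher in low cells, with summed levels of 968 to 1048, 3522 to 4024 and 921 to 956. In that list 3 of the 11 had negative changes in low against negative cells, and Adgre1 was above background on no array. Tyrobp and Fcer1g, among the 6, were lower in high than in negative cells. Of 12 Paneth markers 9 were higher in low and 10 in high cells, with summed levels of 10167 to 12373, 40250 to 45101 and 54847 to 67788. Unlike Gstk1, Gstt1 and Ces3a, the Paneth list was highest in high cells. The part of these cell types in the rises of Gstk1, Gstt1 and Ces3a was not tested. Among 11 hepatocyte markers, Tdo2, Ahsg and Fgb were above background on no array, while Alb and Serpina1c were higher and Cps1 lower in low cells.

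**Figure D4:**
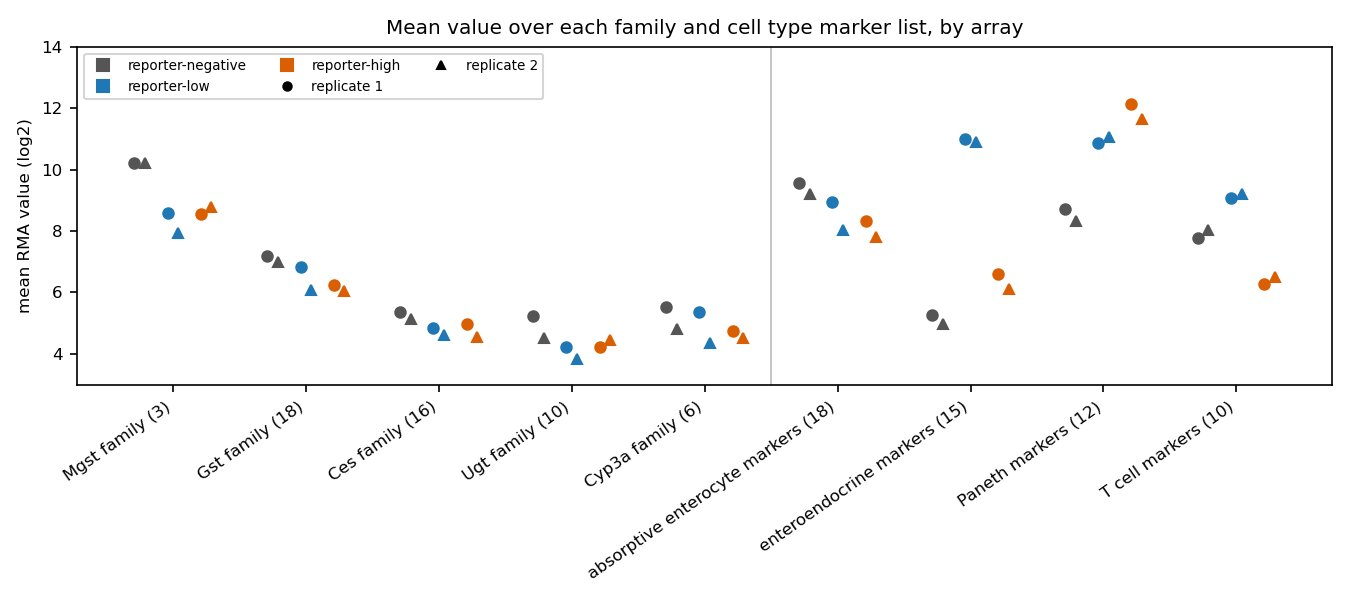
Mean RMA value (log2) on each array over the genes of 5 enzyme families, left of the line, and over 4 cell type marker lists, right of it, with the number of genes in brackets. Colours are gates, circles replicate 1 and triangles replicate 2, and the Mgst means lie near 10.2 in negative cells and under 9 elsewhere, the enterocyte marker means fall from 9.56 and 9.20 in negative to 8.33 and 7.82 in high cells, and the enteroendocrine and T cell means are highest in low cells.

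The regulators of these families were described from a list of sensors and transcription factors, of which 20 of 22 were measured and all 20 were above background on at least 1 array. In low cells 2 were lower and 0 higher, and in high cells 2 were lower and 1 higher than in negative cells. These are 10% and 15% of the 20, where 5.96% and 4.71% of all genes were called. Nr1i2, which encodes the drug sensor PXR, measured 7.78 and 7.95 in negative, 6.75 and 6.29 in low and 6.17 and 6.48 in high cells. The negative arrays were highest, and low and high overlapped. It fell by 1.35 (SE 0.23, adjusted p = 0.0217) in low and by 1.54 (SE 0.23, adjusted p = 0.0206) in high cells. Nfe2l2, which encodes NRF2, measured 10.03 and 9.97 in negative, 9.44 and 8.89 in low and 8.82 and 8.27 in high cells, with the gates separate in that order. Nfe2l2 fell by 1.46 (SE 0.27, adjusted p = 0.0351) in high cells, and its change in low cells was -0.83 (SE 0.27, adjusted p = 0.148).

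Nr5a2, which encodes the nuclear receptor LRH-1, fell by 2.42 (SE 0.34, adjusted p = 0.0117) in low cells. Foxa3, a forkhead factor of gut and liver, rose in high cells, by 1.46 (SE 0.18, adjusted p = 0.0155) against negative and by 1.15 (SE 0.18, adjusted p = 0.0185) against low cells. Nr1i3 (CAR) measured 6.61 and 6.28 in negative, 5.58 and 4.87 in low and 5.85 and 5.27 in high cells, without a call, and its change in low cells was -1.23 (SE 0.31, adjusted p = 0.0762), or adjusted p = 0.0305 with array weights. Ahr measured 6.12 and 6.38 in negative, 5.87 and 6.78 in low and 5.38 and 6.18 in high cells, with overlapping gates and changes of 0.08 and -0.47 against negative cells.

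Among 13 measured genes of electron donors and cofactor supply, Papss1, which makes the sulfate donor of the sulfotransferases, was the only one called. It rose by 0.88 (SE 0.18, adjusted p = 0.0412) in low against negative and fell by 1.72 (SE 0.18, adjusted p = 0.00431) in high against low cells. Of 17 genes of glutathione synthesis and NRF2 targets, 1 was higher and 1 lower in low cells, 1 lower in high cells, and 2 lower in high against low cells. These are 11.8%, 5.88% and 11.8% of the 17, where 5.96%, 4.71% and 4.91% of all genes were called. Gpx3, a secreted glutathione peroxidase, measured 4.12 and 3.55 in negative, 9.35 and 9.02 in low and 6.04 and 4.18 in high cells. Both low arrays were far above the rest. As no negative array exceeded background, its rise in low cells is given as at least 4.96 on the log2 scale against background. The fit gave 5.35 (SE 0.56, adjusted p = 0.00433), and Gpx3 fell by 4.08 (SE 0.56, adjusted p = 0.0113) in high against low cells. Gpx1 fell by 1.54 (SE 0.18, adjusted p = 0.00637) in low cells and Gpx4 by 1.13 (SE 0.23, adjusted p = 0.0427) in high cells. Gclc, the catalytic subunit of the rate-limiting enzyme of glutathione synthesis, fell by 1.75 (SE 0.21, adjusted p = 0.00628) in high against low cells.

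Of 19 measured transporters, 1 was higher and 3 lower in low cells, and 3 were lower in high cells against both other gates. Abcc3 (MRP3), which exports glucuronide and glutathione conjugates, measured 8.11 and 8.11 in negative, 7.69 and 7.88 in low and 5.86 and 5.85 in high cells. High cells stood far below the rest. It fell by 2.25 (SE 0.18, adjusted p = 0.00572) against negative and by 1.93 (SE 0.18, adjusted p = 0.0024) against low cells. Abcg5, part of the sterol exporter, fell by 0.91 (SE 0.18, adjusted p = 0.0372) in low, and in high cells by 1.84 (SE 0.18, adjusted p = 0.00931) against negative and by 0.93 (SE 0.18, adjusted p = 0.0404) against low cells. The peptide carrier Slc15a1 fell by 2.04 (SE 0.28, adjusted p = 0.0172) and by 1.88 (SE 0.28, adjusted p = 0.014) in high against negative and low cells. In low cells Abcc1 (MRP1) rose by 1.08 (SE 0.20, adjusted p = 0.0278), while Slc22a18 fell by 1.10 (SE 0.22, adjusted p = 0.0366). The third transporter that fell in low cells was Slco2b1, by 1.53 (SE 0.34, adjusted p = 0.0496).

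Among 19 other cytochrome P450 genes, Cyp4b1 and Cyp20a1 were called. Cyp4b1 measured 5.15 and 5.07 in negative, 7.83 and 7.82 in low and 5.09 and 5.12 in high cells. Its low arrays stood apart from the other 4, which lay within a narrow range. It rose by 2.72 (SE 0.17, adjusted p = 0.000635) in low and fell by 2.72 (SE 0.17, adjusted p = 0.000711) in high against low cells, and its call in both comparisons was kept without each of the 6 arrays. Cyp20a1 rose in high cells, by 1.24 (SE 0.22, adjusted p = 0.0314) against negative and by 1.18 (SE 0.22, adjusted p = 0.0343) against low cells. Of 35 other oxidation, reduction and conjugation enzymes, 1 was higher and 5 lower in low, and 0 were higher and 9 lower in high than in negative cells. These are 17.1% and 25.7% of the 35, where 5.96% and 4.71% of all genes were called. Fmo1, a flavin monooxygenase, measured 5.32 and 5.22 in negative, 8.22 and 7.14 in low and 5.25 and 5.18 in high cells. The low gate was highest on both arrays. It rose by 2.41 (SE 0.34, adjusted p = 0.0115) in low and fell by 2.46 (SE 0.34, adjusted p = 0.0115) in high against low cells. Its relative Fmo4 moved the other way, falling by 1.50 (SE 0.26, adjusted p = 0.0229) in low cells and rising by 1.46 (SE 0.26, adjusted p = 0.0295) in high against low cells. Aldh2, which clears acetaldehyde, fell by 1.29 (SE 0.20, adjusted p = 0.0148) in low and by 1.75 (SE 0.20, adjusted p = 0.0118) in high cells, and the deacetylase Aadac by 2.14 (SE 0.27, adjusted p = 0.00804) and 1.63 (SE 0.27, adjusted p = 0.0265). Ephx2, the soluble epoxide hydrolase, and Maob, a monoamine oxidase, fell in high against negative cells by 2.13 (SE 0.28, adjusted p = 0.0171) and 1.87 (SE 0.25, adjusted p = 0.0172).

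Of these named related genes, all 12 called in high against negative cells dropped out without negative replicate 1 (adjusted p 0.0855 to 0.209) or negative replicate 2 (0.0785 to 0.243). Without high replicate 2 those of Aadac, Cyp20a1 and Nfe2l2 were lost (0.0734 to 0.0819), and that of Gpx4 was lost without high replicate 1 (0.0601) or either low array (0.0812). In low against negative cells 12 of 14 were lost without negative replicate 1 (0.0709 to 0.262), 13 without negative replicate 2 (0.0516 to 0.234), 8 without low replicate 2 (0.0965 to 0.192) and 6 without low replicate 1 (0.0635 to 0.185). In high against low cells 3 to 6 of 12 were lost without any 1 of the arrays (0.0505 to 0.203). Quantile normalization ended the calls of Nr1i2, Nfe2l2, Aadac and Gpx4 in high against negative cells (adjusted p 0.0585 to 0.184), of Abcc1, Abcg5 and Slco2b1 in low against negative cells (0.0503 to 0.109) and of Abcg5 and Maob in high against low cells (0.0541 to 0.0598). A prior with an intensity trend ended those of Abcg5, Papss1 and Slc22a18 in low cells (0.0655 to 0.0922), of Gpx4 in high against negative cells (0.0566) and of Abcg5 and Maob in high against low cells (0.0574 to 0.0776). Array weights ended those of Aadac, Cyp20a1 and Gpx4 in high against negative cells (0.0514 to 0.0598) and of Abcg5, Cyp20a1, Fmo4 and Maob in high against low cells (0.0659 to 0.101). Centring the arrays on their medians ended those of Papss1 and Slco2b1 in low cells (0.0531 to 0.054) and of Maob in high against low cells (0.0535). Taking the probe set with the largest variance ended those of Slco2b1 in low cells (0.0526) and Maob in high against low cells (0.0512).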

How the data were processed

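Expression was measured on 1-colour arrays of 35556 probe sets, and the 6 arrays with values, 2 for each of 3 gates, were used. The other 12 samples are not analysed here. The deposited values are log2 values. Per the submitters' processing notes, the authors made them by RMA in Affymetrix Expression Console 1.3.0.187. RMA compresses differences near the floor of the signal, and detection calls and scanner files were not used here. The platform annotation gave 21789 probe sets 1 symbol and 1621 several. Where a gene had several probe sets, the one with the highest mean was taken, which left 19938 genes. Array numbers, not read depth, limit the precision.

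Sample titles gave the gates and replicate numbers. The 6 arrays were fitted with limma 3.58.1 (lmFit and eBayes, R 4.3.3) as 3 group means with 3 residual degrees of freedom. Two-sided p-values were adjusted over all 19938 genes (Benjamini-Hochberg), with calls under 0.05. A permutation test of 2 arrays against 2 cannot go below p = 0.333. The script was tested on simulated data. Where no array of the dimmer gate exceeded background, the change is given as at least that against background, which was decided after the data had been seen. Such a bound takes background as equal on all 6 arrays.

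The members, gene lists and tests were chosen with earlier results of these data known. Named genes were the brightest member of each family, all called members, up to 3 called genes with the smallest p in each related list and comparison, and Nr1i2, Nr1i3, Ahr and Nfe2l2. Other named members were chosen after their values were seen, as was Slco2b1. The 6 related lists held 135 genes, of which 123 were measured. Of the 13 marker lists, those not described in the report gave these counts higher and lower in low against negative, high against negative and high against low cells. Epithelial markers had 0 and 0, 0 and 1, and 0 and 1 of 10, goblet 0 and 1, 1 and 1, and 1 and 0 of 9, tuft 1 and 0, 0 and 0, and 0 and 2 of 12, stem cell 0 and 2, 2 and 0, and 3 and 0 of 10. Mast cell markers had 1 and 2, 1 and 2, and 0 and 0 of 9, plasma cell 0 and 3, 0 and 2, and 0 and 0 of 8, and stromal 1 and 0, 0 and 0, and 0 and 1 of 13.

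Alternatives covered the replicate number as a block, the arrays in the fit, a filter at background, the scaling, the choice of probe set, the prior, array weights, the thresholds, probe sets of several symbols and leaving out each array. Python 3.11.15, pandas 2.3.3, numpy 2.4.6 and matplotlib 3.10.9 made the tables and plots.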

Additional observations from a re-analysis of the deposited data

How the results depend on the processing

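With 2 arrays per gate the calls rest on a shared spread with 3 residual degrees of freedom, and leaving out an array assumes that the lone array varies like the other gates. Over all genes the same-numbered arrays deviated together at r = 0.103 (negative and low), 0.102 (negative and high) and 0.079 (low and high). On that ground the numbers were not taken to pair the samples. Among the 114 members, replicate 1 exceeded replicate 2 by more than 1 log2 unit for 12 in negative, 19 in low and 5 in high cells. The opposite held for 1, 0 and 1. Whether the members share an effect of the replicate number was not tested. With the replicate number as a block, 17, 17 and 9 members were called in low against negative, high against negative and high against low cells, where the unblocked fit called 15, 11 and 7. At an adjusted p under 0.01 the counts were 4, 0 and 3, and at an adjusted p under 0.1 high against negative had 17 and high against low 11. Leaving out each array in turn gave 4 to 15, 0 to 15 and 4 to 9 calls. Median log2 changes over members above background on average were -0.62, -0.92 and -0.004, and quantile normalization gave 0.064 in high against low cells. The cause of these shifts was not tested, beyond the fewer arrays, fewer genes or stricter threshold that a setting uses by construction. Among the named genes the block also called Ces2e (adjusted p = 0.0237), Gstp3 (0.0383), Sult1b1 (0.0345), Ugt2a3 (0.0282), Ugt2b34 (0.0497) and Nr5a2 (0.03) in high against negative cells and Ugt2b34 (0.0215) and Nr1i3 (0.0218) in low against negative cells. It left Cyp2d10 in high against negative (0.0538), Abcg5 and Papss1 in low against negative (0.0523 to 0.0559) and Abcg5 in high against low cells (0.0567) uncalled. Among the 23 named members and 25 named related genes, no called change reversed under these settings. Over all settings and comparisons the 23 named members gave 1214 of 1377 results on the same side of the threshold, 134 below it and 29 above it, and the 25 related genes 1299, 172 and 29 of 1500.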

Other observations

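Probe sets that the annotation gave several symbols were left out of the 114 members, and 17 of them held a symbol of these families. Gsta1 and Gsta2, alpha-class transferases known from intestine and liver, shared 4 such probe sets with Gm10639 and Gm3776. The first measured 11.82 and 10.88 in negative, 10.70 and 8.51 in low and 10.08 and 8.91 in high cells, with the negative arrays highest. Its log2 change was -1.74 in low and -1.85 in high against negative cells (limma, adjusted p = 0.273 and 0.205), and none of the 4 was called. Both probe sets shared by Gstp1 and Gstp2 fell, the brighter from 10.28 and 10.26 in negative to 9.01 and 8.50 in low and 9.01 and 8.41 in high cells. Its log2 changes were -1.52 and -1.56 (adjusted p = 0.0257 and 0.0302), in the direction of the Gstp1 probe set. The probe set shared by 8 Ugt1a genes, which glucuronidate bilirubin and many phenols, measured 7.62 and 7.13 in negative, 7.01 and 6.99 in low and 6.14 and 6.31 in high cells. It fell by 1.15 in high against negative cells (adjusted p = 0.0391) and changed by -0.37 in low cells (adjusted p = 0.481).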
